A study of Mus musculus with 12 samples.

Results

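The comparison set tumours of mice given dual immune checkpoint blockade with Dexa at 200 mg against tumours of mice given the same blockade with Dexa at 10 mg. Its members were chosen from the sample titles alone and make up 6 of the 12 samples of the series, 3 at each dose. Both groups are samples of primary tumours of a mouse hepatocellular carcinoma (HCC) model, and both received anti-PD-1 plus anti-CTLA4, which the labels call dICB. The remaining samples are 3 tumours from isotype mice and 3 from mice given dICB with no Dexa. The labels state each Dexa dose in mg, without a body weight or a schedule, and do not write Dexa out in full. The labels do not state strain, sex, age, how the tumours were made or whether each sample is a separate animal, so a p-value measures only the spread between these samples, which may be technical. No group received Dexa without the antibodies.

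Dexamethasone, which the label Dexa most likely abbreviates, is a synthetic glucocorticoid. Glucocorticoids bind a receptor that enters the nucleus, raises the transcription of one set of genes (among them inhibitors of inflammation) and lowers that of many cytokines and chemokines. In macrophages they are known to favour scavenger receptor and clearance genes, and in T cells they curb activation. The antibodies to PD-1 and CTLA4 act the other way, by lifting brakes on T cells, so a question raised by the design is which immune genes of the tumour differ with the steroid dose when both antibodies are present.

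Counts were measured for 770 genes by a panel of probes. The total over the genes was 397145, 411178 and 417274 counts in the 3 samples at 10 mg and 425712, 262314 and 311544 in the 3 at 200 mg. In all, 635 genes averaged 20 counts or more across the 12 samples and were tested, and 135 averaged fewer. Values below are normalised counts, that is counts scaled by TMM factors to one common library of 359608, and they are not compared between genes. The tissue is a mixture of cells, so fewer cells of a type and less RNA per cell cannot be told apart. Epcam, an epithelial surface protein, was above the background of the negative control probes in all 6 samples, as were the macrophage receptor gene Csf1r, the T cell gene Cd3e and the endothelial gene Pecam1, while 10 of 15 hepatocyte genes on the panel were too low to be tested. The natural killer cell gene Ncr1 was also too low.

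One library stood apart before any comparison. Dexa 10 mg replicate 2 lay outside the range of the other 5 Dexa samples by over 1.5-fold in 91 genes (14.3% of those tested), against 0 to 16 genes for each of the others. Its log2 counts correlated at 0.942 and 0.926 with the other replicates of its group, which correlated at 0.979 with each other, and the 3 replicates at 200 mg correlated at 0.967 to 0.974. Replicates 1 and 3 at 10 mg carry the sample code ICI7 and replicate 2 carries ICI10, while at 200 mg replicates 1 and 2 carry ICI10 and replicate 3 carries ICI7. What the codes stand for is not stated in the labels. Results are therefore shown with and without Dexa 10 mg replicate 2, and dose differences were also taken within each code, where one dose is a single sample. One sample of the dICB group, replicate 1, also stood apart, with 15824 normalised counts of the neutrophil gene S100a8 against 252 and 256. It enters here through the shared estimate of spread, the filter on mean counts over the 12 samples, the scaling and the dICB means quoted.

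No gene passed at an adjusted p of 0.05. The edgeR quasi-likelihood test over all 12 samples called 0 of 635 genes (0%), with a smallest adjusted p of 0.299. Without Dexa 10 mg replicate 2 it again called 0 genes (0%), with a smallest adjusted p of 0.0753. DESeq2 called 2 genes, Arg1 and Ccl19, both higher at 200 mg with an adjusted p of 0.0444. At an unadjusted p under 0.05 there were 76 genes in edgeR (12% of those tested), 32 higher (5.04%) and 44 lower (6.93%) at 200 mg, and 73 in DESeq2. Without replicate 2 there were 90 (14.2%), 35 higher (5.51%) and 55 lower (8.66%). All 76 genes kept their direction without that library, in a fit that reuses the other samples that picked them and so is no separate support. Of the 76, 49 had a smaller absolute log2 fold change there, and 46 kept an unadjusted p under 0.05. The number at that level was 50 without 10 mg replicate 3 and 36 without 200 mg replicate 3. The values at both doses did not overlap in 138 genes (21.7%), 61 higher (9.61%) and 77 lower (12.1%) at 200 mg. Without replicate 2, when 3 samples face 2, they did not in 267 (42%), 120 higher (18.9%) and 147 lower (23.1%).

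**Figure D1:**
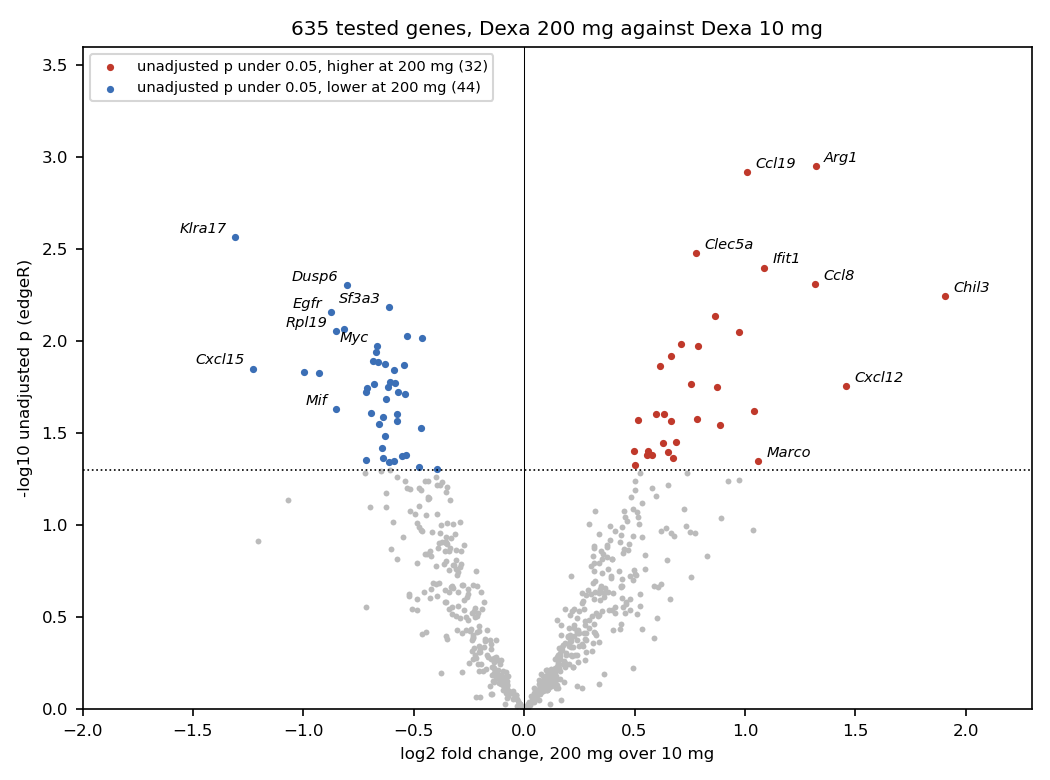
Log2 fold change of 200 mg over 10 mg (x axis) against -log10 of the unadjusted edgeR p (y axis) for the 635 tested genes; the dotted line marks the level of 0.05. There are 32 coloured points on the right and 44 on the left, led by Arg1, Ccl19 and Klra17, and no gene passed after adjustment.

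The split between higher and lower genes depended on the scaling. The 20 housekeeping genes of the panel list had a median log2 fold change of -0.34, with 17 of 20 lower at 200 mg, 6 of them at an unadjusted p under 0.05 (against 6.93% of all tested genes). Scaling each library on these genes in place of TMM moved the median of all tested genes from 0.05 to 0.32 and turned the 32 higher and 44 lower genes into 90 higher and 6 lower. Scaling on the positive control probes gave 24 higher and 14 lower. Levels and folds below are TMM values unless another scaling is named, and a gene called lower is lower relative to the bulk of the panel. The 15 genes of smallest p in each direction kept their sign in each of the 20 alternatives run, which reuse samples that picked these genes.

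Several genes of macrophages and of their alternative activation lay on the higher side. Arg1 encodes arginase, which breaks down arginine and marks suppressive and tissue repair macrophages in mice. Its normalised counts were 508, 871 and 375 at 10 mg and 1136, 1788 and 1458 at 200 mg. The 3 samples at 200 mg were all above the 3 at 10 mg, and replicate 2 was the highest of its group. The group means were 585 ± 256 and 1461 ± 326 (SD, n = 3 each), a log2 fold change of 1.32 ± 0.31 (SE; edgeR adjusted p = 0.299), and without replicate 2 the value was 1.71 ± 0.29 (adjusted p = 0.0753). Within codes the fold was 1.72 in ICI7 and 0.75 in ICI10. In the same scale the mean was 1150 in the dICB group and 364 in the isotype group. Hepatocytes also express Arg1. The 4 other hepatocyte genes that were tested gave log2 fold changes of 0.24 for Alas1, 0.16 for C6, -0.19 for Masp1 and -1.07 for Cfi, and the 10 remaining ones were above background in 0 of the 6 samples.

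Chil3 encodes the chitinase-like protein Ym1, another product of alternatively activated mouse macrophages. It stood at 168, 252 and 98.4 at 10 mg and at 431, 1178 and 335 at 200 mg. The groups did not overlap, and replicate 2 at 200 mg was far above the rest. Its log2 fold change of 1.90 ± 0.57 was the highest of the tested genes (2.27 without Dexa 10 mg replicate 2), and it was 1.09 without 200 mg replicate 2. Marco, a scavenger receptor of macrophages, stood at 52.3, 122 and 43.5 against 123, 154 and 178. Here the library that stood apart nearly reached the lowest sample at 200 mg, and the fold was 1.06 ± 0.47 with it and 1.65 ± 0.49 without it. Mrc1, the mannose receptor CD206, overlapped between the doses (253, 412 and 183 against 325, 325 and 504). Its fold was 0.45 with all samples, 0.81 without replicate 2 and -0.34 within code ICI10, so its direction rests on which samples are compared.

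Among pattern recognition and Fc receptors of myeloid cells, Clec5a stood at 45.9, 37.2 and 38.3 at 10 mg against 80.9, 66.2 and 60.8 at 200 mg. Clec7a, which encodes the beta-glucan receptor dectin-1, had 757, 497 and 639 against 1038, 1382 and 846. Fcgr2b, the inhibitory Fc receptor, had 1462, 813 and 1142 against 1959, 1565 and 2065. All 3 separated the doses, with log2 fold changes of 0.78 ± 0.22, 0.79 ± 0.26 and 0.71 ± 0.24, and of 0.72, 0.63 and 0.51 without Dexa 10 mg replicate 2. Btk, a kinase of B cells and myeloid cells, and Cd53, a tetraspanin of leukocytes, were higher by 0.67 ± 0.23 and 0.62 ± 0.21. The lysozyme gene Lyz2 had 16082, 11587 and 10058 against 18030, 23259 and 30267, a fold of 0.92 ± 0.44 with no overlap. Nos2, the inducible nitric oxide synthase of classically activated macrophages, was higher as well, at 197, 245 and 112 against 302, 468 and 255 (0.88 ± 0.36).

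As a group, 26 of 30 tested genes of the macrophage and monocyte list had a positive fold, 3 with an unadjusted p under 0.05 (against 5.04% of all tested genes), and 1 of the 4 others was lower at that level. The list's median was 0.32 beside 0.05 over all tested genes, and 0.23 beside 0.03 without replicate 2. The broad markers gave smaller folds than Arg1 and Chil3. Csf1r, the receptor that macrophages need to survive, had 409, 362 and 296 against 448, 444 and 434, a fold of 0.31 ± 0.24. Cd68, a lysosomal protein of macrophages, had 713, 716 and 536 against 792, 823 and 833, a fold of 0.32 ± 0.19. The summed level of the list ran from 40953 to 51650 at 10 mg and from 47102 to 62514 at 200 mg, so the ranges overlapped, while the mean log2 level of its tested members was higher in each sample at 200 mg than in any at 10 mg. Its part in the values of Arg1 and Chil3 was not tested. On this list 7 members did not overlap between the doses on the higher side (23.3%, against 9.61% of all tested genes). Of the 4 members with a negative fold, 2 did not overlap (6.67% of the list, against 12.1%), Cx3cr1 and the lipoprotein gene Apoe (-0.45). Cx3cr1, the fractalkine receptor of patrolling monocytes and resident macrophages, stood at 69.7, 68.9 and 77.5 against 47.7, 47.9 and 41.3 (-0.66 ± 0.26, and -0.69 without replicate 2). The alternative activation list, which holds Arg1, Chil3 and Mrc1, had 14 of 18 members higher (against 342 of all 635), with a median of 0.28 (0.51 without replicate 2). At an unadjusted p under 0.05, 4 members were higher (against 5.04%) and 1 was lower (against 6.93%). The lower one was Vegfa, at -0.58, with no overlap.

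**Figure D2:**
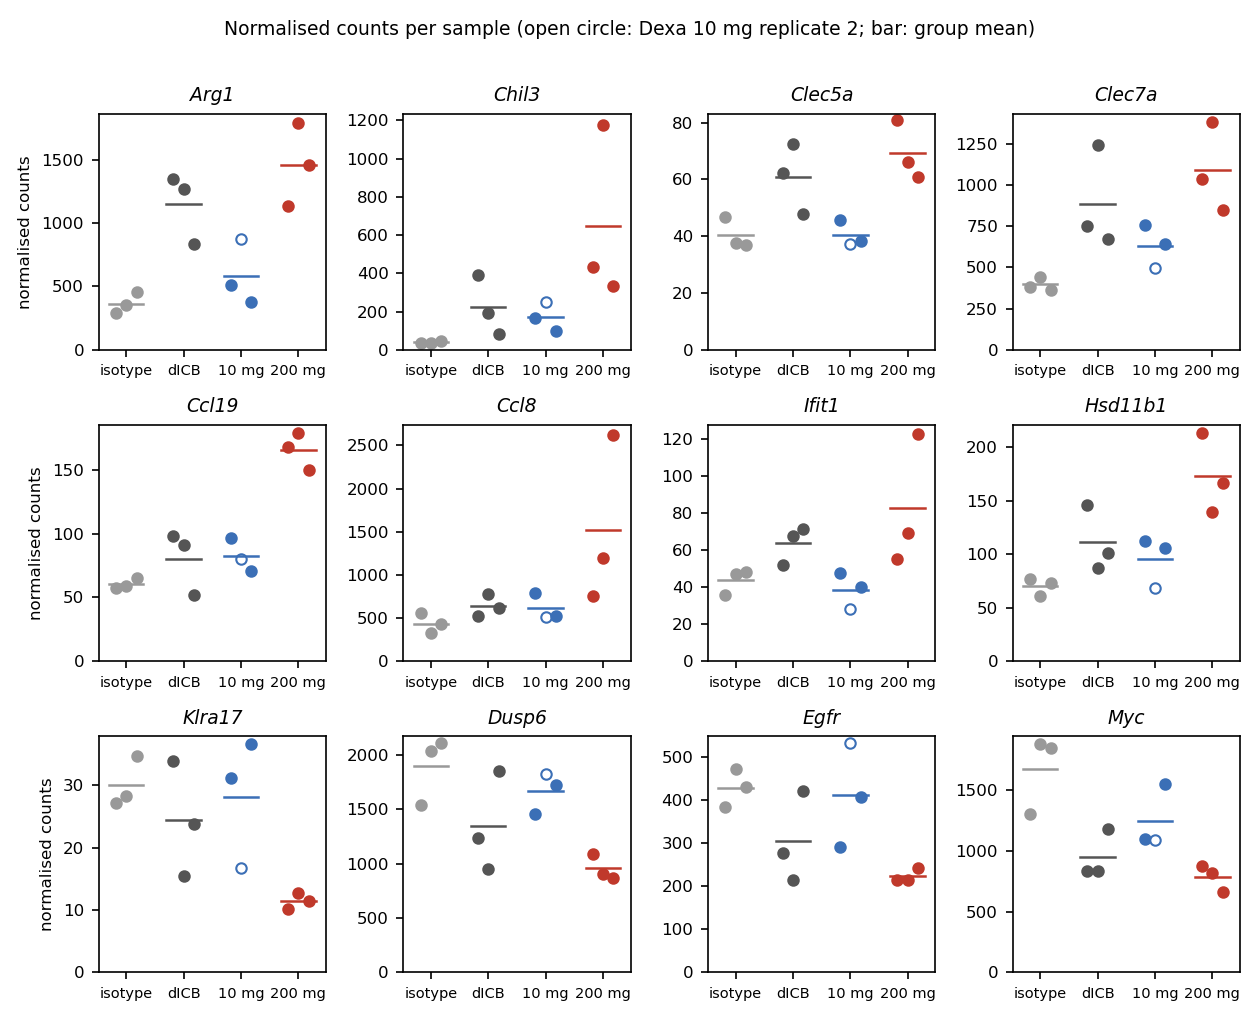
Normalised counts (y axes, linear, starting at 0) of 12 genes in each of the 12 samples, by group; points are samples, bars are means of 3, and the open circle is Dexa 10 mg replicate 2. Arg1, Ccl19 and Hsd11b1 are higher in all 3 samples at 200 mg than in any at 10 mg, and Dusp6, Egfr and Myc are lower in all 3.

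Chemokines of the CC family direct the movement of leukocytes. Ccl19, a ligand of CCR7 that guides T cells and dendritic cells into lymphoid tissue, had 96.3, 80.1 and 70.5 normalised counts at 10 mg and 168, 179 and 150 at 200 mg. The spread within each dose was small beside the gap between them. Its log2 fold change was 1.01 ± 0.24 (edgeR adjusted p = 0.299), 0.98 without Dexa 10 mg replicate 2, 0.85 within code ICI7 and 1.11 within ICI10. The means in the dICB and isotype groups were 80.5 and 60.3, near the level at 10 mg. Ccl21a, the other ligand of CCR7, was at 22.9, 17.7 and 20 against 57.9, 31 and 34.4. It was above background in 0 of 3 samples at 10 mg and in 3 of 3 at 200 mg, and mouse Ccl21 genes are near-identical copies that a probe may not tell apart.

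The other CC chemokines with an unadjusted p under 0.05 were Ccl8, Ccl6, Ccl11 and Ccl5. Ccl8, a monocyte attractant, had 794, 515 and 523 against 758, 1191 and 2623, so the lowest sample at 200 mg lay within the 10 mg range. Its fold was 1.32 ± 0.39, and 0.67 without 200 mg replicate 3. Ccl6 had 448, 277 and 291 against 573, 557 and 618 (0.78 ± 0.31). Ccl11, or eotaxin, gave a fold of 0.87 ± 0.32 and Ccl5, a T cell attractant, one of 0.67 ± 0.30, both with overlapping groups. Without 10 mg replicate 2 the fold of Ccl5 was 0.39. In the whole family 17 of 20 tested members had a positive fold, 6 of them with an unadjusted p under 0.05 (against 5.04% of all genes), and no lower member reached that level. Without replicate 2 it was 4 higher and 1 lower (against 5.51% and 8.66%). The median was 0.51 with all samples, 0.61 without replicate 2, 0.78 with housekeeping scaling, when all genes had a median of 0.32, and 0.10 within code ICI10. Among members that did not reach it, Ccl17, Ccl7, Ccl9 and Ccl1 gave folds of 0.65, 0.89, 0.64 and 0.60, and Ccl17 and Ccl7 gave -0.02 and -0.31 within ICI10. The lowest fold was that of Ccl20, -0.59, at counts close to background.

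Of the CXC family, Cxcl12, a stromal chemokine that retains CXCR4-bearing cells, had 215, 209 and 131 against 506, 285 and 731, a fold of 1.46 ± 0.53 (1.54 without replicate 2). Cxcl15, which is known from lung epithelium, had 270, 148 and 407 against 176, 70.4 and 103, a fold of -1.23 ± 0.43. The groups of Cxcl15 overlapped through 10 mg replicate 2, and the fold was -1.52 without it. Members of this family went both ways, 5 higher and 7 lower, with a median of -0.05 that was 0.20 with housekeeping scaling. Of the receptors, Cxcr3, which is found on activated T cells, had 31.2, 33.5 and 26.1 against 48.6, 52.1 and 78 (0.97 ± 0.31). Cxcr3 was above background in 2 of 3 samples at 10 mg.

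The upstream sequences of Ccl19 and of Ifit1, an interferon-stimulated gene described next, are printed because both genes are among the 4 of smallest p on the higher side and both hold letters that match an interferon response element. Each run is the 250 bases before the start of the gene, 5′ to 3′ on the gene's strand, from RefSeq's table on GRCm38.p6. Capitals mark matches, on either strand, to the core of the interferon response element to which interferon regulatory factors bind.
Ifit1, chr19:34640639-34640888, plus strand: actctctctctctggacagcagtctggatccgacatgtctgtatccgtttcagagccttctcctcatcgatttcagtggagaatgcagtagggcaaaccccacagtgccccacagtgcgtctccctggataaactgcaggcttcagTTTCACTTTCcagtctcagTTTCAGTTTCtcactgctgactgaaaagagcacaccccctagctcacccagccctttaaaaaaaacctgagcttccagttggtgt
Ccl19, chr4:42756366-42756615, minus strand: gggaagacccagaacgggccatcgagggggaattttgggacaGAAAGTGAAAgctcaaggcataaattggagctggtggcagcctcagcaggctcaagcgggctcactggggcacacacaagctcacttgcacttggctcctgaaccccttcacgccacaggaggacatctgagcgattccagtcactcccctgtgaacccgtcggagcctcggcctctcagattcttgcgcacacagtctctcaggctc
The Ifit1 sequence holds 2 matches, 104 and 85 bases before the start, and the Ccl19 sequence holds 1, at 208 bases. Of the tested genes with a sequence in the table, 38 of 464 (8.19%) held a match, beside 2.98% of all promoters there. Among genes with an unadjusted p under 0.05 it was 3 of 25 (12%) on the higher side, Ccl19, Ifit1 and Socs1, and 3 of 30 (10%) on the lower side, and on the interferon list 12 of 28 (42.9%). The half-site of the glucocorticoid receptor, on either strand, was found in 17.9% of tested genes, in 4 of 25 (16%) on the higher side and in 2 of 30 (6.67%) on the lower side. These are matches of letters in a window of 250 bases.

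Interferon-stimulated genes encode antiviral proteins and are read as a sign of interferon in a tissue. Ifit1, which binds foreign RNA, had 47.7, 27.9 and 40.1 normalised counts at 10 mg and 55.4, 69 and 123 at 200 mg, a fold of 1.09 ± 0.31 (0.90 without replicate 2, and 0.68 without 200 mg replicate 3). The groups did not overlap, and 200 mg replicate 3 was the highest. Ifit2 had 179, 183 and 181 against 230, 259 and 289 (0.52 ± 0.21). Oas2, which makes the activator of an RNA-cutting enzyme, had 90.8, 86.6 and 95.8 against 111, 117 and 205 (0.66 ± 0.27). For Oas2 too, 200 mg replicate 3 was far above the rest. The list as a whole was evenly divided, with 18 of 36 tested members higher and 18 lower and a median of 0.01. At an unadjusted p under 0.05, 3 members were higher (against 5.04% of all tested genes). Without replicate 2 the number became 7 and the median 0.11, beside 5.51% and 0.03 over all tested genes.

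Other members of the interferon list took different values with and without the library that stood apart. Ifit3 had 195, 634 and 193 at 10 mg against 214, 294 and 622 at 200 mg, so that 1 sample of each dose was high. Its fold was 0.14 with all samples and 0.95 without replicate 2. Isg15, a ubiquitin-like protein, had 100, 296 and 116 against 127, 148 and 252, with folds of 0.04 and 0.70. Stat2, which carries the interferon signal to the nucleus, went the opposite way, at 525, 129 and 534 against 680, 654 and 553, and its fold of 0.67 became 0.24. In replicate 2 at 10 mg the level of Stat2 was thus low where Ifit3 and Isg15 were high.

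**Figure D3:**
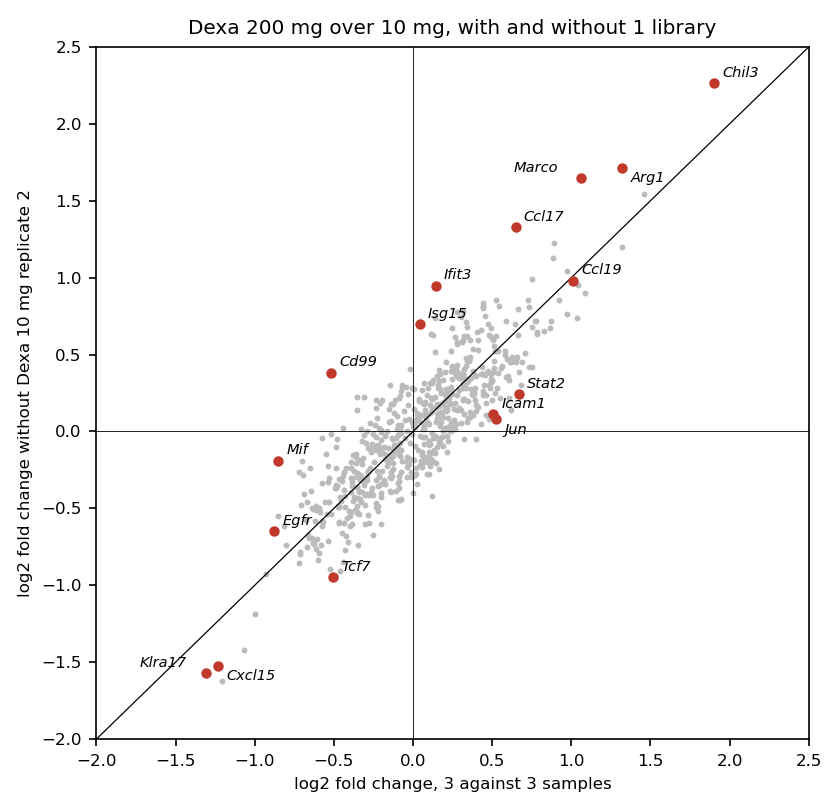
Log2 fold change of 200 mg over 10 mg for 635 genes with all 6 samples (x axis) and without Dexa 10 mg replicate 2 (y axis); the diagonal marks equal values and named genes are red. Arg1, Marco, Ccl17, Ifit3 and Isg15 lie above the diagonal, Jun, Icam1, Stat2 and Tcf7 below it, and Cd99 changes sign, from -0.52 to 0.38.

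With all samples, genes known to respond to glucocorticoids were divided between higher and lower values. Of 11 genes on the list of those that glucocorticoids are known to induce, 6 were higher and 5 lower at 200 mg, none with an unadjusted p under 0.05 (against 12% of all tested genes in either direction), and the median was 0.12. Il1rn, the natural blocker of the interleukin-1 receptor, had 240, 143 and 272 against 301, 276 and 408 (0.59 ± 0.45), and Mertk, a receptor for the uptake of dying cells, had 215, 137 and 162 against 234, 225 and 241 (0.45 ± 0.28). Neither gene overlapped between the doses, though neither passed. Il1r2, the decoy receptor for interleukin-1, gave 0.15, Il7r 0.44, Tnfaip3 0.12 and the haemoglobin scavenger receptor Cd163 0.27, the last near background. Nfkbia, the inhibitor of NF-kB, gave -0.49, Thbs1 -0.57, Anxa1 -0.15, Cebpb -0.23 and Cxcr4 -0.09. Without replicate 2, Nfkbia, Thbs1, Anxa1 and Cebpb stood at -0.10, -0.04, 0.14 and 0.09, so the lower values of Nfkbia and Thbs1 came with that library. Higher members moved as well. Il1rn, Mertk and Cd163 fell to 0.36, 0.30 and 0.02, while Il7r, Il1r2 and Tnfaip3 rose to 0.81, 0.36 and 0.21. The list then held 8 higher and 3 lower members, with a median of 0.14.

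The list of inflammatory genes that glucocorticoids are known to lower held 10 higher and 9 lower members of 19 tested, with a median of 0.02. It held 12 higher and 7 lower without replicate 2, with a median of 0.11. The 2 with an unadjusted p under 0.05, Nos2 and Ccl5, were both higher (against 5.04% of all tested genes). Only 1 of them, Nos2, reached that level without replicate 2 (against 5.51%). The summed level of the list was 5384, 5522 and 5433 normalised counts at 10 mg and 5763, 6315 and 6345 at 200 mg, so each sample at the higher dose was above each at the lower. Tnf, a cytokine that drives inflammation, had 33.9, 32.6 and 33.1 against 36.6, 36.6 and 61.9 (0.44 ± 0.26), with 200 mg replicate 3 far above the rest. Il1b had 92.6, 108 and 77.5 against 103, 106 and 143, and Ptgs2, the inducible cyclooxygenase, had 84.4, 92.2 and 59.2 against 116, 90.2 and 125. Both overlapped, and their folds of 0.34 and 0.49 had standard errors of 0.95 and 0.91 in the fit that shares its spread with dICB replicate 1. The chemokines Ccl2, Ccl3, Ccl4 and Cxcl10 gave folds of 0.16, 0.02, 0.07 and -0.15, and Il1a, Ifng, Csf2 and Il23a gave 0.26, -0.33, -0.20 and -0.14. Il6, Cxcl1 and Cxcl2 were near background, with folds of -0.20, -0.03 and -0.09. The adhesion molecules Icam1 and Vcam1 gave 0.51 and -0.21, and the matrix protease Mmp9 gave -0.34. Icam1 was 528, 155 and 570 against 642, 678 and 465, so its positive value came from the low count in 10 mg replicate 2, without which it was 0.11. The direction of Vcam1 turned to 0.05 with housekeeping scaling.

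Hsd11b1, which is not on either list, encodes the enzyme that regenerates active glucocorticoid from its inactive form inside cells. It had 112, 68 and 105 normalised counts at 10 mg and 213, 139 and 166 at 200 mg. The samples of each dose stood apart from those of the other, with a log2 fold change of 0.87 ± 0.27 (edgeR adjusted p = 0.299) and of 0.67 without replicate 2. Within codes it was 0.61 in ICI7 and 1.38 in ICI10. The dICB and isotype means were 112 and 70.2, below each sample at 200 mg.

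On the lower side were genes of growth factor signalling. Dusp6, a phosphatase that the ERK pathway induces and that restrains it, had 1459, 1820 and 1724 at 10 mg and 1088, 906 and 871 at 200 mg. The gap between the doses was wider than the range of either. Its fold was -0.80 ± 0.24, and -0.74 without replicate 2. Egr1, an early gene of the same pathway, had 397, 438 and 412 against 249, 324 and 240 (-0.62 ± 0.23). Myc, which drives growth, had 1100, 1094 and 1556 against 878, 821 and 661 (-0.67 ± 0.22). Egfr, the receptor for epidermal growth factor, had 292, 532 and 408 against 214, 214 and 242, with replicate 2 the highest, a fold of -0.88 ± 0.27 and of -0.65 without that library. Map3k1 and Tfrc, the transferrin receptor, gave -0.67 ± 0.23 and -0.72 ± 0.32. Of 30 tested members of the growth list 25 had a negative fold, 6 with an unadjusted p under 0.05 (against 6.93%), and 9 did not overlap between the doses (against 12.1%). The list's median was -0.31, and -0.05 with housekeeping scaling against a median of 0.32 for all genes. Jun was the highest member, at 143, 28.9 and 131 against 143, 161 and 132, a fold of 0.52 that was 0.08 without replicate 2.

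Of the genes of epithelial tumour cells, Epcam had 174, 186 and 202 against 130, 134 and 114 (-0.57 ± 0.22), and Erbb2, a receptor related to Egfr, had 127, 194 and 168 against 123, 114 and 76.9 (-0.64 ± 0.25). Both separated the doses. With Egfr they were the 3 of 7 tested genes of the epithelial list with an unadjusted p under 0.05 (against 6.93%). The list's median of -0.24 was 0.04 with housekeeping scaling. Its other tested members overlapped, with folds of -0.24 for Cdh1, 0.01 for Ceacam1 (near background), -0.17 for Cdh5 and 0.02 for Spp1. Cdh5 is also on the endothelial list and Spp1 on the macrophage list, so the list is not of epithelial genes alone. The fibronectin gene Fn1 had 12153, 18763 and 13772 against 9035, 8265 and 8103, a fold of -0.81 ± 0.26 (-0.62 without replicate 2). Itgb1, the beta chain of its receptors, gave -0.46 ± 0.15, and Vegfa, which drives vessel growth, gave -0.58 ± 0.23. The collagen gene Col3a1 went the other way, at 1.04 ± 0.59 with overlapping samples. The summed level of the epithelial list ran from 1628 to 2074 at 10 mg and from 1231 to 1878 at 200 mg. These sums overlapped, while the list's mean log2 level was lower in each sample at 200 mg than in any at 10 mg, and its part in the growth genes' values was not tested.

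Of 17 tested apoptosis genes 13 had a negative fold, 4 with an unadjusted p under 0.05 (against 6.93% of all tested genes), and the median was -0.31 (-0.07 with housekeeping scaling). Tnfrsf10b, a death receptor for TRAIL, had 257, 359 and 302 against 204, 207 and 181 (-0.63 ± 0.22). Trp53, the p53 tumour suppressor, had 155, 357 and 204 against 141, 148 and 153, and its fold of -0.69 became -0.28 without replicate 2, the sample with the highest level. Mif, a cytokine of macrophages and tumour cells, was similar, at 1882, 5408 and 2040 against 1765, 1812 and 1592, with folds of -0.85 and -0.19. Ltbr, Nfkb2 and Sigirr, a receptor, a subunit and an inhibitor in the NF-kB and interleukin-1 pathways, gave -0.69, -0.61 and -0.66, while the NF-kB list was divided into 17 higher and 16 lower members.

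Genes that many cells use stood lower too. The ribosomal gene Rpl19 had 15585, 29196 and 18540 against 14253, 11344 and 9484, a fold of -0.85 ± 0.27 (-0.55 without replicate 2). Sf3a3, a splicing factor, had 349, 456 and 363 against 262, 247 and 257 (-0.61 ± 0.19), and Psmd7, a proteasome subunit, gave -0.53 ± 0.17 and Hdac3, a histone deacetylase, -0.57 ± 0.21. The nuclear protein Hmgb1 gave -0.58 ± 0.21, and -0.74 without replicate 2. The geometric mean of the 20 housekeeping genes was 417, 383 and 500 at 10 mg and 395, 351 and 326 at 200 mg. The doses overlapped, as 10 mg replicate 2 lay below 200 mg replicate 1. The growth, epithelial and apoptosis lists had negative medians too. At 10 mg, replicate 2 was the lowest sample in this geometric mean and the highest for the epithelial list. The summed level of the housekeeping genes was 28901, 41024 and 35284 at 10 mg and 26512, 21745 and 19249 at 200 mg. By that measure replicate 2 was the highest sample, and the doses did not overlap. The part of the housekeeping genes' level in these lists was not tested.

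**Figure D4:**
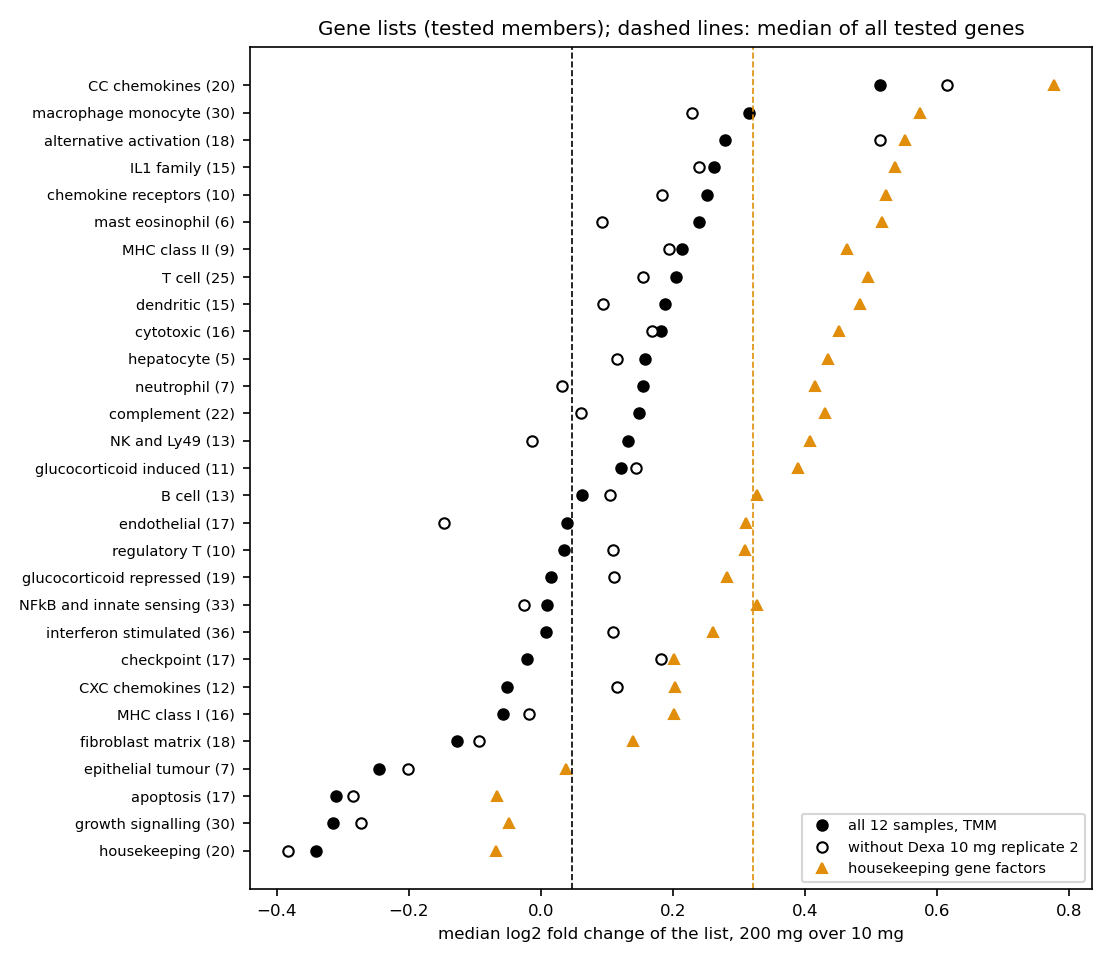
Median log2 fold change, 200 mg over 10 mg (x axis), of each gene list with at least 5 tested members (number in brackets), with TMM and all samples (filled circles), without Dexa 10 mg replicate 2 (open circles) and with housekeeping scaling (triangles). The dashed lines are the medians of all tested genes, 0.05 with TMM and 0.32 with housekeeping scaling; CC chemokines are at the top and the housekeeping, growth and apoptosis lists at the bottom, and the epithelial, fibroblast, MHC class I, CXC and checkpoint lists have a negative median with TMM and a positive one with housekeeping scaling.

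Markers of T cells overlapped between the doses for the most part, as did most tested genes. On the T cell list 1 of 25 did not overlap on the higher side (4%, against 9.61% of all tested genes). On the lower side it was 0 (against 12.1%). Cd3e, a chain of the T cell receptor complex, had 104, 59.6 and 113 against 87.8, 80.3 and 123 (0.07 ± 0.32). Cd8a, of cytotoxic T cells, had 113, 41 and 119 against 95.4, 113 and 169, a fold of 0.46 that was 0.11 without replicate 2, which was low. Of 25 tested T cell genes 20 had a positive fold (against 342 of all 635), 1 of them with an unadjusted p under 0.05 (against 5.04%), and the median was 0.20 (0.15 without replicate 2). The granule genes Gzmb and Prf1 gave 0.34 and -0.08, with overlap. Gzmb was 0.71 without replicate 2 and -0.37 within code ICI10. Il2ra, the high-affinity receptor chain of activated and regulatory T cells, had 33, 61.4 and 35.7 against 64.8, 52.1 and 70, with folds of 0.53 and, without replicate 2, 0.86.

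Klra17, of the Ly49 family of receptors on natural killer and myeloid cells, had the lowest p on the lower side, at 31.2, 16.8 and 36.6 against 10.2, 12.7 and 11.5. It was above background in 2 of 3 samples at 10 mg and in 0 of 3 at 200 mg, so its fold of -1.31 ± 0.35 sets a low level against background. Klra4, of the same family, gave -0.47 ± 0.19, and probes of this family may share targets. The activating receptor Klrk1 gave 0.53 ± 0.32, and 0.28 without replicate 2. Tcf7, a transcription factor of naive and stem-like T cells, had 399, 101 and 585 against 338, 245 and 179. Its fold was -0.51 with all samples, -0.95 without replicate 2 and 1.52 within code ICI10, where that library is the only sample at 10 mg.

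The targets of the antibodies did not separate the doses. Pdcd1, which encodes PD-1, had 226, 480 and 268 against 168, 310 and 366 (-0.21 ± 0.36, and 0.18 without replicate 2). Ctla4 had 39.4, 58.7 and 40.1 against 32.4, 40.9 and 52.8 (-0.14 ± 0.26, and 0.07 without it). Cd274, which encodes the PD-1 ligand PD-L1, had 1158, 2128 and 905 against 1201, 1702 and 1229. Its fold was -0.02 ± 0.27 with all samples and 0.41 ± 0.19 without replicate 2, which held the highest level of all 3 genes at 10 mg. Lag3, another inhibitory receptor, gave -0.49 and did not overlap (180, 225 and 163 against 99.7, 155 and 151). Cd160 gave 0.56 ± 0.24 near background. The checkpoint list had 8 members higher and 9 lower of 17, and its median of -0.02 was 0.18 without replicate 2 and 0.20 with housekeeping scaling.

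**Figure D5:**
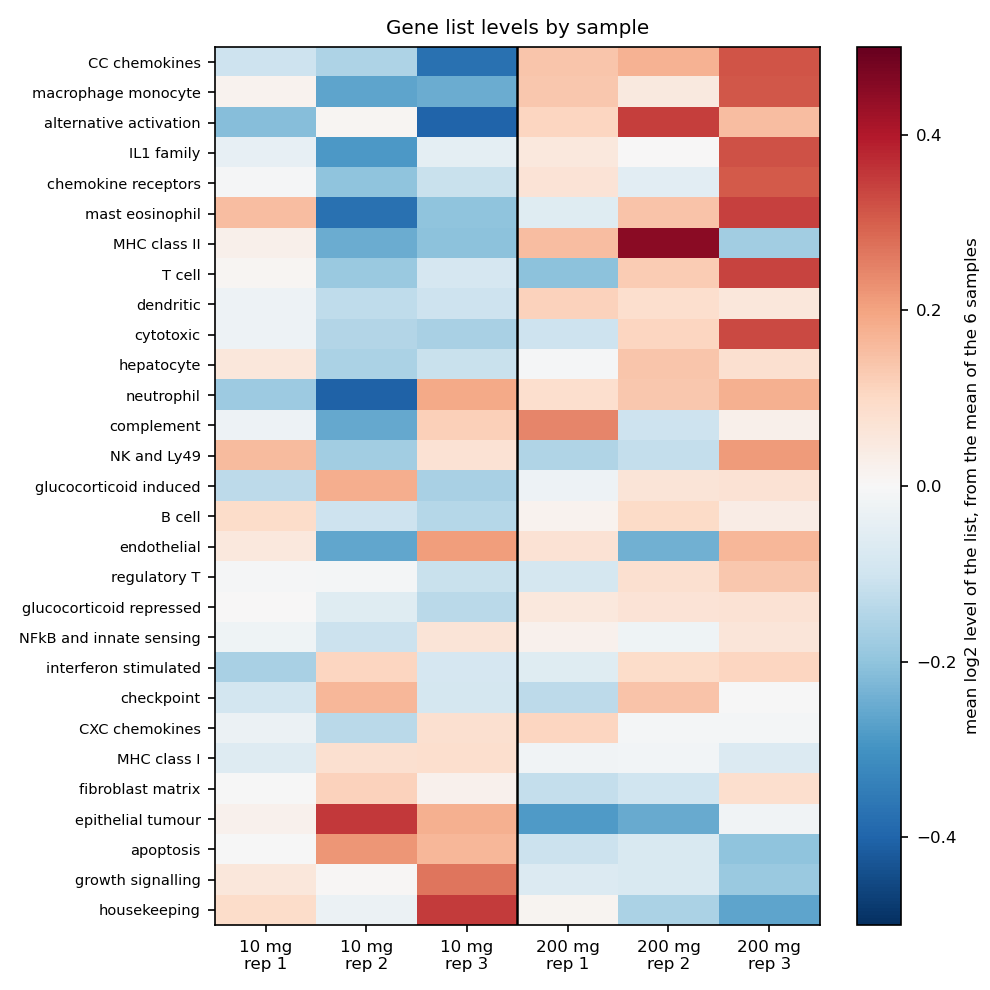
Mean log2 level of each gene list with at least 5 tested members (rows) in each of the 6 Dexa samples (columns), as the difference from the mean of the 6, with red higher and blue lower. The CC chemokine, macrophage, alternative activation, interleukin-1, dendritic and glucocorticoid repressed rows are higher in all 3 samples at 200 mg than in any at 10 mg, the epithelial, apoptosis and growth rows are lower in all 3, and the neutrophil, mast cell and epithelial rows are at their extreme in 10 mg replicate 2. Rows share members and are not separate groups. Ccl17 and Ccl22 are in the CC chemokine, alternative activation and dendritic rows, and Marco and Clec7a in the macrophage and alternative activation rows.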

How the data were processed

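Per the labels' protocols, primary tumours were fixed in formalin and embedded in paraffin before RNA extraction (Qiagen miRNeasy FFPE kit). The deposited values are raw counts per probe for 784 probes (770 genes, 6 positive and 8 negative controls), whole numbers with no background subtracted, as far as the values show. Which instrument, panel and counting software were used is not stated in the labels. Groups came from sample titles.

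The 635 genes averaging 20 counts or more across the 12 samples were tested with edgeR 4.0.16 (R 4.3.3) by the quasi-likelihood test, a mean per group over all 12 samples, TMM scaling, two-sided, with Benjamini-Hochberg adjustment over all 635. The common biological coefficient of variation was 28.3%, with 8 residual degrees of freedom. The SE of a fold was its log2 value divided by the square root of the F statistic. Background was the mean plus 2 SD of the negative controls in each sample. On simulated counts for this comparison over 635 genes, 200 were changed, all drawn from genes averaging at least 50 counts. Of genes changed by a log2 fold of 1, 70% were recovered, and of those changed by 2, 98%, with 5 false among 173 calls. The simulation held no library that stood apart and no changed gene of lower counts, so these shares are not the power of the test on the real counts. Alternatives included limma 3.58.1 on background-subtracted values, DESeq2 1.42.0 (adjusted p left as given), 2 other scalings, other filters and each sample left out.

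Named genes were the 15 of smallest p in each direction, the 3 of smallest p in each list, the antibody targets, the 2 glucocorticoid lists and the ends of each list described. The members and lists were chosen with earlier results of these data known. Outside this rule, and chosen after their values were seen, are Mrc1, Lyz2, Ccl21a, Ccl6, Ccl1, Ccl7, Ccl9, Ifit3, Isg15, Stat2, Egr1, Tfrc, Cd3e, Cd8a, Gzmb, Prf1, Mif, Cd99, Csf1r, Cd68, Apoe, C6, Masp1, Socs1, Pecam1, S100a8, Cxcr2, Ceacam1, Cdh1, Cdh5, H2-Dma and 9 further genes of the comparison between sample codes. Same-numbered samples of the 2 doses correlated in their deviations at 0.04, 0.29 and -0.35. With 3 samples per dose these values cannot settle whether the numbers pair samples, and the labels do not state a pairing. Of 770 gene names, 754 were current symbols, 8 synonyms and 8 unmatched in the RefSeq table, and 566 had an upstream sequence there. The motif patterns searched in it are consensus cores from general knowledge, not from the deposited files. Some genes that the rule names are not reported here.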

Additional observations from a re-analysis of the deposited data

Results flagged for a closer look

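The difference between the doses was not the same in the samples coded ICI10 and ICI7 for 16 genes, by an edgeR quasi-likelihood test of the difference itself over all tested genes (adjusted p from 0.0151 to 0.0399). At 10 mg the only ICI10 sample is replicate 2, the library that stood apart, and at 200 mg the only ICI7 sample is replicate 3. Code and these single samples therefore cannot be told apart, and the test takes their spread from the other groups. As the log2 dose effect in ICI10 minus that in ICI7, the immune signalling genes gave 2.33 for Icam1, 2.3 for Stat2, 2.5 for the kinase Jak2, 2.43 for the macrophage growth factor Csf1, 2.57 for the Fc receptor Fcgr3, 1.92 for the chemokine Cxcl16 and 1.39 for the complement protease C1s1. Of the transcription and housekeeping genes, Tcf7 gave 2.98, Jun 2.44, Litaf 1.79, the RNA polymerase subunit Polr2a 1.85 and the proteasome subunit Psmb7 2.58. The 4 genes of opposite sign were Ifit3 at -3.0, Isg15 at -2.33, the antiviral gene Rsad2 at -2.18 and the adhesion molecule Cd99 at -2.15. In 10 mg replicate 2 Fcgr3 stood at 34.4 normalised counts against 199 to 239 in the other 5 samples, and Cd99 at 1441 against 394 to 591.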

How the results depend on the processing

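The count of 0 called genes was the same in 17 of the 20 alternatives, with 23 calls within code ICI10 (where 10 mg is replicate 2 alone, assumed to vary like the other groups), 2 with DESeq2 and 2 (Arg1 and Klra17) without 10 mg replicate 2 and dICB replicate 1, an alternative added after seeing the data. The count at an unadjusted p under 0.05 was 38 with positive control scaling, 160 within ICI10, and 36 to 101 with 1 Dexa sample left out (110 without both libraries named), against 76. Genes whose doses do not overlap numbered 267 without 10 mg replicate 2, where fewer samples face each other. The labels do not state that replicate numbers pair the samples. With the number as a replicate block 0 genes were called and 74 had an unadjusted p under 0.05. Among 120 of the named genes, 82 lay at least 1 SE from 0 and 71 of them kept their direction in every alternative. The 11 others turned as follows. Within ICI10 the log2 fold was -0.34 for Mrc1, -0.015 for Ccl17, -0.31 for Ccl7, 0.13 for Ccl20, 1.52 for Tcf7, -0.37 for Gzmb and -0.064 for Il2ra. Within ICI7 it was -0.053 for Jun, -0.24 for Icam1 and 0.57 for Cd99. Tcf7 was 0.017 with the code as a covariate. With Dexa samples left out in turn, or 10 mg replicate 2 and dICB replicate 1 together, Tcf7 ran from -0.95 to 0.025 (the latter without 10 mg replicate 3) and Cd99 from -0.91 to 0.39 (0.38 without 10 mg replicate 2). Vcam1 was 0.053 with housekeeping scaling. The cause was not tested. Depth limits genes near background, such as Klra17, Ccl20, Ccl21a, Cd160 and Cd163, and the 135 genes left out.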

Other observations

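The list of genes of antigen presentation by MHC class II left out H2-Dma, a tested gene, through its spelling. That gene gave 0.37 within code ICI10 and -0.21 within ICI7. Of the list itself, 9 of 9 tested members had a positive fold with all samples and 8 without 10 mg replicate 2. No member separated the doses. Folds ran from 0.08 for Ciita, the master regulator of the class, to 0.68 for Ctss, a protease that prepares the peptide groove, with a median of 0.21 (-0.12 within code ICI7 and 0.44 within ICI10) and none with an unadjusted p under 0.05 (against 5.04% of all tested genes). Ctss stood at 6586, 1760 and 4077 normalised counts at 10 mg and 6354, 6545 and 6997 at 200 mg, so the groups overlapped and without 10 mg replicate 2, the lowest sample, its fold was 0.30. Of the interleukin-1 family, 12 of 15 members were higher (against 342 of all 635), none with an unadjusted p under 0.05 (against 5.04%). The 1 member at that level, Sigirr, was lower (against 6.93% of all tested genes). Il18r1, a receptor chain for interleukin-18, stood at 81.6, 31.7 and 84.5 against 89.5, 93 and 151, a fold of 0.75 ± 0.44 (0.42 without 10 mg replicate 2). Of 7 tested neutrophil genes 5 were higher, the highest of them Fpr2, a formyl peptide receptor, at 130, 66.1 and 88.8 against 204, 147 and 209 (0.97 ± 0.46, edgeR adjusted p = 0.408). Il18r1 and Fpr2 both separated the doses, and in both 10 mg replicate 2 was the lowest sample.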
